A study of Mus musculus with 10 samples.

Results

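The sensors that detect double-stranded or otherwise foreign-looking nucleic acid inside cells were examined in intestinal epithelial cells (IECs) of the mouse colon, as a group of 8 genes: Ddx58, Ifih1, Dhx58, Tlr3, Zbp1, Eif2ak2, Adar and Mavs. The members were taken by gene name from the deposited expression table. Each of the 8 names was found once among its 55487 genes, and all 8 were among the 12870 genes tested, those with a mean of at least 1 TPM over the 10 libraries. TPM gives the abundance of a gene's transcripts per length, as a share of the RNA of its library, and the deposited values add up to 971419 to 993229 TPM per library. Colon IECs of 5 wild-type (WT) and 5 RhoB-/- replicates were compared, all on the C57BL/6J background. RhoB-/- mice lack the small GTPase RhoB from the germline on, in every cell of the body, so the comparison was not limited to the epithelium. Mice were 6 to 8 weeks old, the age given for all mice where no other is stated, and no treatment was given for the sequencing. The study's methods give WT males as purchased and RhoB-/- mice as made elsewhere, although WT littermates are named for the chronic colitis experiment. Which WT mice were sequenced was not stated, so genotype cannot be told apart from origin or breeding. All were kept pathogen-free in a single facility, and whether the genotypes shared cages before sequencing was not stated. The labels do not say whether each replicate was a separate mouse. The p-values set the group difference against the spread between these libraries, which may not be the spread between mice. IECs were shaken off the opened colon in EDTA without sorting, so cells of other types could be carried along.

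RIG-I (Ddx58) and MDA5 (Ifih1) are helicases that bind viral or cellular double-stranded RNA in the cytosol and pass the signal to MAVS, an adaptor protein on the outer mitochondrial membrane. MAVS then recruits the kinases TBK1 and IKK epsilon, which activate the transcription factors IRF3 and IRF7 and so the interferon genes. Most of the sensors are themselves interferon-stimulated genes, and in the gut epithelium they are best known for the response to enteric viruses, whereas ADAR1 edits the cell's own double-stranded RNA and keeps these sensors from being activated by it.

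The targeted gene was read first as a check of the labels. Rhob TPM was 170.5, 302.8, 364.9, 333.4 and 388.7 in WT replicates 1 to 5. In RhoB-/- replicates 1 to 4 it was 0.09, 0.10, 0.35 and 0.57. For the library labelled RhoB-/- replicate 5 the value was 110.87, below every WT library but far above the other RhoB-/- libraries, which goes against its label. Rhob has 1 annotated exon, at chr12:8497661-8500009 on the minus strand (GRCm38). It is kept in the RhoB-/- group as labelled, and the results below are also given without it. The log2 fold change of Rhob was -6.61 with it and -7.90 without it (adjusted p = 0.00172 and 4.59e-08, limma with Benjamini-Hochberg adjustment).

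Of the 8 members, 7 were higher in RhoB-/- IECs and none was lower, at an adjusted p below 0.05 from limma with Benjamini-Hochberg adjustment over all genes tested. In the same fit 7.73% of all genes tested were higher and 13.5% were lower. These shares depended on the processing: 15.6% were higher with each library centred on its median, and 28.4% were lower without the mitochondrial genes. With 1 library left out the share lower ran from 6.68% without WT replicate 4 to 22.8% without RhoB-/- replicate 3. For the same 7 members every RhoB-/- value lay above every WT value, which held for 5.97% of all genes tested. With the study's cutoffs of a p below 0.05, taken here as unadjusted, together with a fold above 1.5, limma also called 7 members higher, against 6.37% of all genes tested. The members' median log2 fold change was 1.43, and that of all genes tested was -0.13. Zbp1 had the largest difference and Tlr3 the smallest of the 7, whereas the adaptor Mavs was not called.

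**Figure D1:**
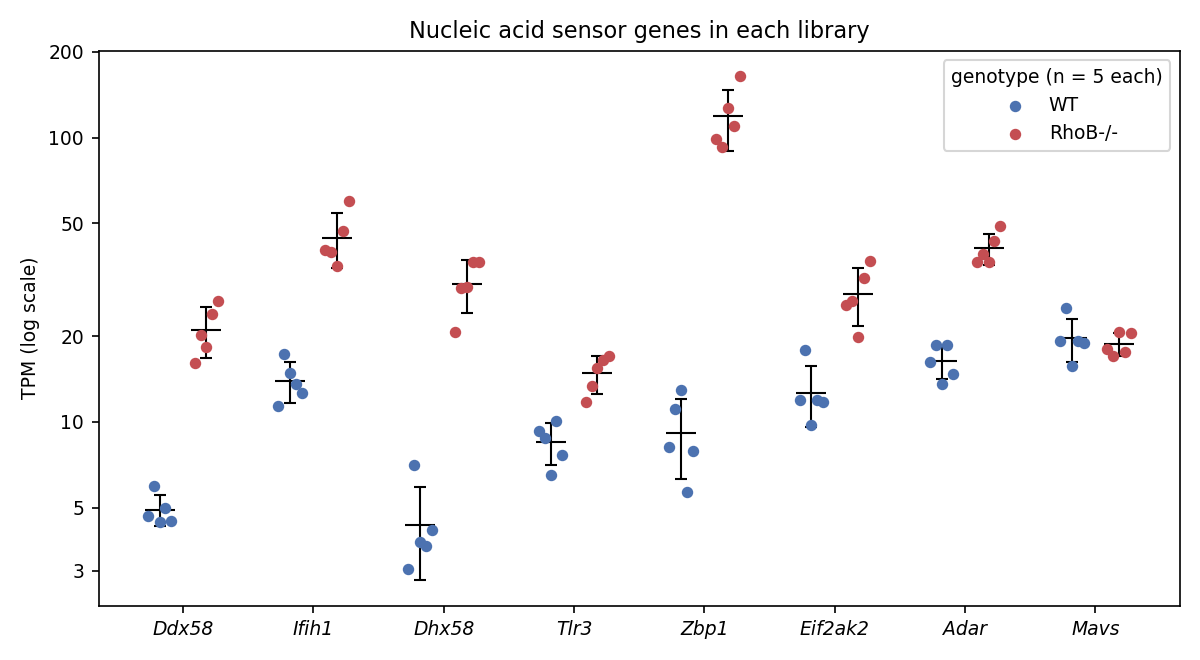
TPM of the 8 sensor genes on a log scale, 1 point per library in replicate order, for 5 WT and 5 RhoB-/- libraries; horizontal lines are means and bars SD. The groups are apart for 7 genes and overlap for Mavs, which lies between 15.8 and 25.2 TPM in all 10 libraries.

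The RIG-I-like receptors were low to moderate in WT IECs, and all 3 were higher in RhoB-/- IECs. Ddx58 (ENSMUSG00000040296, chr4:40203773-40239828, minus strand) encodes RIG-I, which binds short double-stranded RNA with a 5′ triphosphate or diphosphate end. Its TPM in the WT libraries was 4.66, 5.95, 4.46, 5.0 and 4.48. Across the RhoB-/- libraries it was 16.2, 20.3, 18.4, 24.0 and 26.7. The WT values were tightly grouped, and the lowest RhoB-/- value was 2.72 times the highest WT value. The mean was 4.91 ± 0.620 TPM in WT and 21.1 ± 4.25 TPM in RhoB-/- libraries (SD, n = 5 each), a 4.30-fold ratio. The difference of mean log2(TPM + 1) values, called the log2 fold change from here on and too small for genes of low level, was 1.89 ± 0.14 (SE, adjusted p = 2.67e-06, limma with Benjamini-Hochberg adjustment). Only 1.10% of all genes tested had a higher log2 fold change.

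Ifih1 (ENSMUSG00000026896, chr2:62595798-62646255, minus strand) encodes MDA5, which assembles into filaments along long double-stranded RNA. It was the most abundant of the 3 helicases in WT IECs, with 11.4, 17.4, 14.9, 13.6 and 12.6 TPM. The RhoB-/- libraries had 40.3, 39.6, 35.3, 47.1 and 60.0 TPM. Here too the groups were apart, and the RhoB-/- values were more widely spread than the WT values, with the library labelled RhoB-/- replicate 5 highest. The mean went from 13.97 ± 2.30 to 44.5 ± 9.67 TPM (SD, n = 5 each). This was a 3.18-fold ratio, with a log2 fold change of 1.59 ± 0.15 (SE, adjusted p = 3.13e-05, limma with Benjamini-Hochberg adjustment).

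Dhx58 (ENSMUSG00000017830, chr11:100694884-100704271, minus strand) encodes LGP2, a helicase that binds RNA but has no signalling domain of its own and tunes the activity of the other helicases. WT libraries had 3.05, 7.06, 3.79, 3.65 and 4.16 TPM. RhoB-/- libraries had 20.7, 29.6, 29.9, 36.4 and 36.6 TPM. WT replicate 2 stood above the other WT libraries but still at less than every RhoB-/- value. The mean was 4.34 ± 1.57 TPM in WT and 30.7 ± 6.52 TPM in RhoB-/- libraries (SD, n = 5 each), a 7.06-fold ratio. Its log2 fold change of 2.58 ± 0.20 (SE, adjusted p = 3.93e-06, limma with Benjamini-Hochberg adjustment) was the largest of the 3 helicases, and 0.497% of all genes tested had a higher one.

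The balance among the helicases was read within each library, a comparison that the scaling of TPM does not touch. Ddx58 divided by Dhx58 had a median of 1.18 in WT libraries (0.843 to 1.53) and of 0.685 in RhoB-/- libraries (0.613 to 0.782), with no overlap. Ifih1 divided by Dhx58 went from a median of 3.73 (2.46 to 3.92) to 1.34 (1.18 to 1.95), also with no overlap. The ratio of Ifih1 to Ddx58 had medians of 2.81 and 1.97, and its ranges overlapped. These ratios are a description and were not tested.

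Because 7 members were higher together, the members' promoter windows were searched on both strands for a pair of motifs known from interferon-responsive promoters. The core of the interferon-stimulated response element, bound by proteins of the IRF family, was written as GAAANNGAA. The gamma-activated site, known from genes that respond to interferon gamma, was written as TTCNNNGAA, and matches to the motifs can overlap each other. RefSeq windows of 300 bases on GRCm38.p6, from 250 bases before the transcription start to 50 from the start on, matched 6 of the 8 members with 8 windows. Dhx58 and Zbp1 were not matched. Of the 6 genes, 4 held at least 1 match to the response element core: Ddx58, Ifih1, Eif2ak2 and Adar. The core was found in at least 1 window of 9.76% of all 27025 genes in the same table, and in 8.56% of all 32851 windows. The gamma-activated site was in 8.30% of the windows. A match is a description of letters and not evidence that a factor binds there, and no match says only that these letters are not in the window.

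The 170 bases from 120 before the start to 50 from the start on are given here for the 4 genes with a match and for Mavs and Tlr3, which had none in the whole window, read 5′ to 3′ on each gene's own strand with matches to the response element core in capitals. They lie at chr4:40239776-40239945 (minus strand) for Ddx58, chr2:62646206-62646375 (minus) for Ifih1, chr17:78882523-78882692 (minus) for Eif2ak2, chr3:89730598-89730767 (plus) for Adar, chr8:45410331-45410500 (minus) for Tlr3 and chr2:131233943-131234112 (plus) for Mavs.
Ddx58: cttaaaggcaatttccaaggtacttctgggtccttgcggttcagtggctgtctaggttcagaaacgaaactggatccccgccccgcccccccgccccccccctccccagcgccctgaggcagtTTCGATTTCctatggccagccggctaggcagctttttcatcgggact
Ifih1: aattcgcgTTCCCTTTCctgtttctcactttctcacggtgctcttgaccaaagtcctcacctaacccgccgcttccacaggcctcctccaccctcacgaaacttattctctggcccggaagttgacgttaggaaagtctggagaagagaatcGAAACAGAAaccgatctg
Eif2ak2: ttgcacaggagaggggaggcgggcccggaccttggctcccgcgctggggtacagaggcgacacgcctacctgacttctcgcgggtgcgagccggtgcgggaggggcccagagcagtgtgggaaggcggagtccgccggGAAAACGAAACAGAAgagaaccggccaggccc
Adar: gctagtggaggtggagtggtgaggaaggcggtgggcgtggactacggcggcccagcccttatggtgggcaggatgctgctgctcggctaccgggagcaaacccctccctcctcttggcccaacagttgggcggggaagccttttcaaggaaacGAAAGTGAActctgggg
Tlr3: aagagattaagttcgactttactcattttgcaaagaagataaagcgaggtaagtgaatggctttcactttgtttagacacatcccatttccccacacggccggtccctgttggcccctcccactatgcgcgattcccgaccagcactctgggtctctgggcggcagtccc
Mavs: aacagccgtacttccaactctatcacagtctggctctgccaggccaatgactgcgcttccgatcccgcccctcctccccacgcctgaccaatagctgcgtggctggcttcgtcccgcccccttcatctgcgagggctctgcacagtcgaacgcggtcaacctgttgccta
The match of Ddx58 began at base 4 of the transcript, on the strand opposite to the gene. Ifih1 had a match 112 bases before the start and another from base 33 of the transcript on. In Eif2ak2 a pair of matches, from bases 19 and 25, overlapped in 1 run of capitals, and a gamma-activated site match lay 178 bases before the start. Adar has 3 RefSeq windows; those at chr3:89714772-89715071 and chr3:89714988-89715287 held no match, and the window farther downstream also held a match 249 bases before its start and a gamma-activated site match from base 23 of its transcript on, which overlaps no core match. The deposited values are per gene, so which Adar start was used was not measured.

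Tlr3 (ENSMUSG00000031639, chr8:45395665-45411080, minus strand) encodes the receptor for double-stranded RNA in endosomes, which signals through the adaptor TRIF (Ticam1) and not through MAVS. Its TPM was 9.27, 8.80, 6.51, 10.1 and 7.67 in WT libraries. The RhoB-/- values were 11.7, 13.3, 15.5, 16.6 and 17.1. The groups were apart by a narrow margin, since the lowest RhoB-/- value was 1.16 times the highest WT value. Tlr3 averaged 8.47 ± 1.41 TPM in WT and 14.8 ± 2.26 TPM in RhoB-/- libraries (SD, n = 5 each). Its log2 fold change of 0.74 ± 0.14 (SE, adjusted p = 0.00328, limma with Benjamini-Hochberg adjustment) was exceeded by 5.81% of all genes tested.

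Zbp1 (ENSMUSG00000027514, chr2:173206612-173218923, minus strand) encodes a sensor of left-handed Z-form nucleic acid that can start necroptosis through RIPK3 and MLKL. In WT libraries it had 8.19, 11.1, 13.0, 5.68 and 7.90 TPM. In RhoB-/- libraries it had 99.1, 92.7, 127, 110.0 and 165 TPM. Every RhoB-/- library was at least 7.13 times the highest WT library, the widest gap between the groups of any member. The mean was 9.17 ± 2.87 TPM in WT and 118.6 ± 28.8 TPM in RhoB-/- libraries (SD, n = 5 each), a 12.9-fold ratio. The log2 fold change was 3.57 ± 0.21 (SE, adjusted p = 5.23e-07, limma with Benjamini-Hochberg adjustment), and 0.241% of all genes tested had a higher one.

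Eif2ak2 (ENSMUSG00000024079, chr17:78852564-78882573, minus strand) encodes PKR, a kinase that double-stranded RNA activates and that stops translation by phosphorylating eIF2 alpha. Its WT values were 11.98, 18.0, 9.78, 11.9 and 11.8 TPM. Its RhoB-/- values were 25.9, 26.7, 19.9, 32.1 and 36.9 TPM. The groups came close, since WT replicate 2 was high among WT libraries and RhoB-/- replicate 3 was low among RhoB-/- libraries, at 1.11 times that WT value. Eif2ak2 averaged 12.7 ± 3.09 TPM in WT and 28.3 ± 6.47 TPM in RhoB-/- libraries (SD, n = 5 each), with a log2 fold change of 1.09 ± 0.18 (SE, adjusted p = 0.00171, limma with Benjamini-Hochberg adjustment).

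Adar (ENSMUSG00000027951, chr3:89715022-89753446, plus strand) encodes ADAR1, which converts adenosine to inosine in double-stranded RNA and, in its long form, also carries a Z-form binding domain like that of ZBP1. WT libraries had 16.2, 18.6, 13.7, 18.6 and 14.7 TPM. The 5 RhoB-/- libraries had 36.6, 39.0, 36.5, 43.2 and 48.7 TPM. The lowest RhoB-/- value was 1.96 times the highest WT value, and no library stood out in either genotype. The mean went from 16.4 ± 2.25 to 40.8 ± 5.19 TPM (SD, n = 5 each), a log2 fold change of 1.27 ± 0.12 (SE, adjusted p = 2.95e-05, limma with Benjamini-Hochberg adjustment). The ratio of Adar to Eif2ak2 within a library overlapped between genotypes, with medians of 1.35 in WT (1.04 to 1.56) and 1.42 in RhoB-/- (1.32 to 1.84).

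Mavs (ENSMUSG00000037523, chr2:131234063-131248025, plus strand) encodes the adaptor on which RIG-I and MDA5 converge. WT libraries had 19.3, 25.2, 15.8, 19.3 and 18.9 TPM. RhoB-/- libraries had 18.0, 17.0, 20.7, 17.6 and 20.5 TPM. The groups overlapped, and the highest and the lowest values of all 10 libraries were both from WT. The log2 fold change was -0.06 (95% interval -0.32 to 0.21, adjusted p = 0.768, limma with Benjamini-Hochberg adjustment), and its sign was not the same under all scalings, as it was 0.06 with each library centred on its median. The interval lies below the estimates of all 7 other members, although a p that misses the threshold does not show that the level was the same. Mavs, the member not called, was used as a reference within each library, although not all members signal through MAVS. The ratios to Mavs therefore largely repeat the differences between the groups given for each member.

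**Figure D2:**
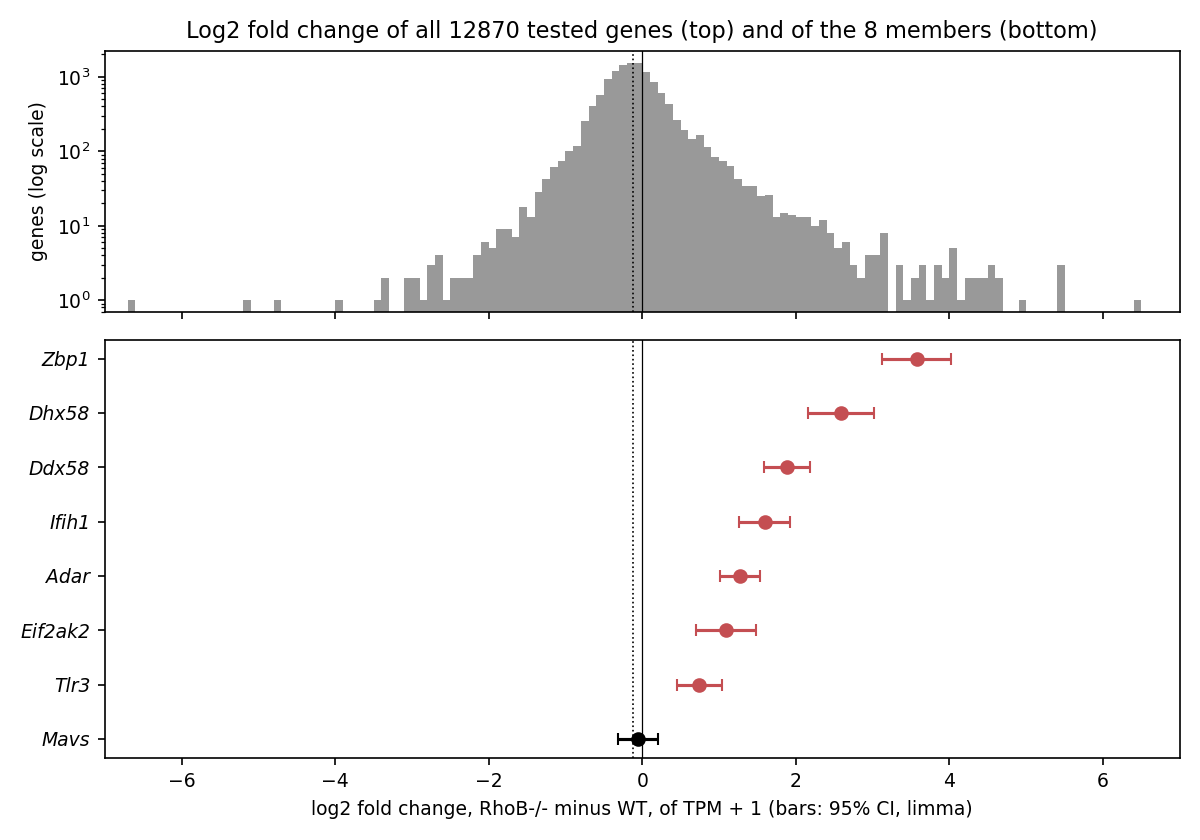
Upper panel, number of tested genes (log scale) by log2 fold change, RhoB-/- minus WT, in bins of 0.1; lower panel, log2 fold change of each member with its 95% interval from limma, red where called. The dotted line is the median of all genes tested, -0.13; only the interval of Mavs crosses 0.

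Relative to Mavs in the same library, the 7 other members did not overlap between genotypes. The median ratio of Zbp1 to Mavs was 0.424 in WT libraries and 6.11 in RhoB-/- libraries. For Ifih1 it was 0.691 and 2.33, and for Adar 0.839 and 2.29. All 7 were below Mavs in transcript level in each WT library, and Zbp1, Ifih1, Adar and Dhx58 were above it in each RhoB-/- library. Dhx58 went from a median ratio of 0.22 to 1.74, Ddx58 from 0.241 to 1.19 and Eif2ak2 from 0.620 to 1.57. The lowest RhoB-/- ratio was 0.885 for Ddx58 and 0.958 for Eif2ak2, so these genes were not above Mavs in every RhoB-/- library. Tlr3 remained below Mavs in each library of both genotypes, with medians of 0.413 and 0.783 and a highest RhoB-/- ratio of 0.945.

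The levels of the genes can be ordered because TPM is per transcript length. In WT IECs the mean TPM fell in the order Mavs, Adar, Ifih1, Eif2ak2, Zbp1, Tlr3, Ddx58, Dhx58. Neighbours in this order overlapped in their ranges except Tlr3 and Ddx58. In RhoB-/- IECs the order was Zbp1, Ifih1, Adar, Dhx58, Eif2ak2, Ddx58, Mavs, Tlr3. Here Zbp1 was apart from Ifih1, and all other neighbours overlapped. Summed over the 8 members the level was 89.6 ± 12.7 TPM in WT and 317.5 ± 57.1 TPM in RhoB-/- libraries (SD, n = 5 each), a 3.54-fold ratio.

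The called members had their highest value in the same library among RhoB-/- libraries, but not among WT libraries. All 7 called members had their highest RhoB-/- value in the library labelled RhoB-/- replicate 5, the library with Rhob RNA. Among WT libraries, replicate 2 had the highest value for 4 of the 7, and replicate 3 had the highest for 1 and the lowest for 4. Without the library labelled RhoB-/- replicate 5 the same 7 members were called. Their log2 fold changes were then 3.45 for Zbp1, 2.51 for Dhx58, 1.80 for Ddx58, 1.48 for Ifih1, 1.20 for Adar, 0.99 for Eif2ak2 and 0.69 for Tlr3. The highest adjusted p of these was that of Tlr3, 0.0120, from limma with Benjamini-Hochberg adjustment. Mavs was at -0.09 and again was not called.

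The genes whose profile over the 10 libraries was most like that of a member were found among all genes tested by the root mean square difference of centred log2(TPM + 1) values. Genotype means were left in, so for a called member a near gene is largely one with a similar log2 fold change. None of the 3 nearest genes of any member was itself a member. Nearest to Ddx58 was Trim34a (difference 0.098), followed by Ifi27l2b and Parp12. Ifih1 was closest to Samd9l (0.136), Znfx1 and Trim25, the last being a ubiquitin ligase that activates RIG-I. For Dhx58 the nearest were Sp100 (0.187), Oas1g and Parp14, and for Zbp1 they were Gm12250 (0.177), Gm5431 and Ly6a. Gm12250 and Gm5431 averaged 0.716 and 0.806 TPM in WT and 18.7 and 17.3 TPM in RhoB-/- libraries. They thus reached the level for testing through the RhoB-/- libraries, and at such low WT levels their log2 fold changes are too small. Tlr3 was closest to Mitd1 (0.158), Lrp1 and Pml. Eif2ak2 was closest to Trim6 (0.160), Gm12251 and Agrn, and Adar to Shisa5 (0.129), Agrn and B4galt5. Mavs was closest to Tmed7 (0.061), Pafah2 and Ecpas.

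Most genes of the step next to the sensors, from the cofactors of the helicases to IRF3 and IRF7, were not called. This also held for 10141 of the 12870 genes tested. Of 28 genes of this list, 27 were tested, 5 were higher and none was lower, with a median log2 fold change of 0.18. The share higher was 18.5%, against 7.73% of all genes tested, and 13.5% of all genes tested were lower. Ddx60, a helicase that promotes RIG-I signalling, went from 1.63 ± 0.509 to 36.9 ± 13.4 TPM (SD, n = 5 each), and its log2 fold change was 3.81 (adjusted p = 4.33e-07 by limma with Benjamini-Hochberg adjustment). Irf7 went from 54.3 ± 19.4 to 445 ± 104 TPM (SD, n = 5 each), a log2 fold change of 3.05. Trim25 had a log2 fold change of 1.71, and Casp8 had 0.68. Tbk1, the kinase that MAVS recruits, had 0.47, but its groups overlapped, and its call was lost in 8 of the 10 settings that left out 1 library and in 2 of 8 others, with an adjusted p of up to 0.0790 (limma with Benjamini-Hochberg adjustment). Irf3, the factor present before any stimulus, had 49.0 ± 4.83 TPM in WT and 49.4 ± 6.08 TPM in RhoB-/- (SD, n = 5 each) and was not called. Neither was Rnf135, another ligase of RIG-I, at 3.31 ± 1.05 and 2.42 ± 0.316 TPM (SD, n = 5 each). The count for this list was 12 with each library centred on its median.

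**Figure D3:**
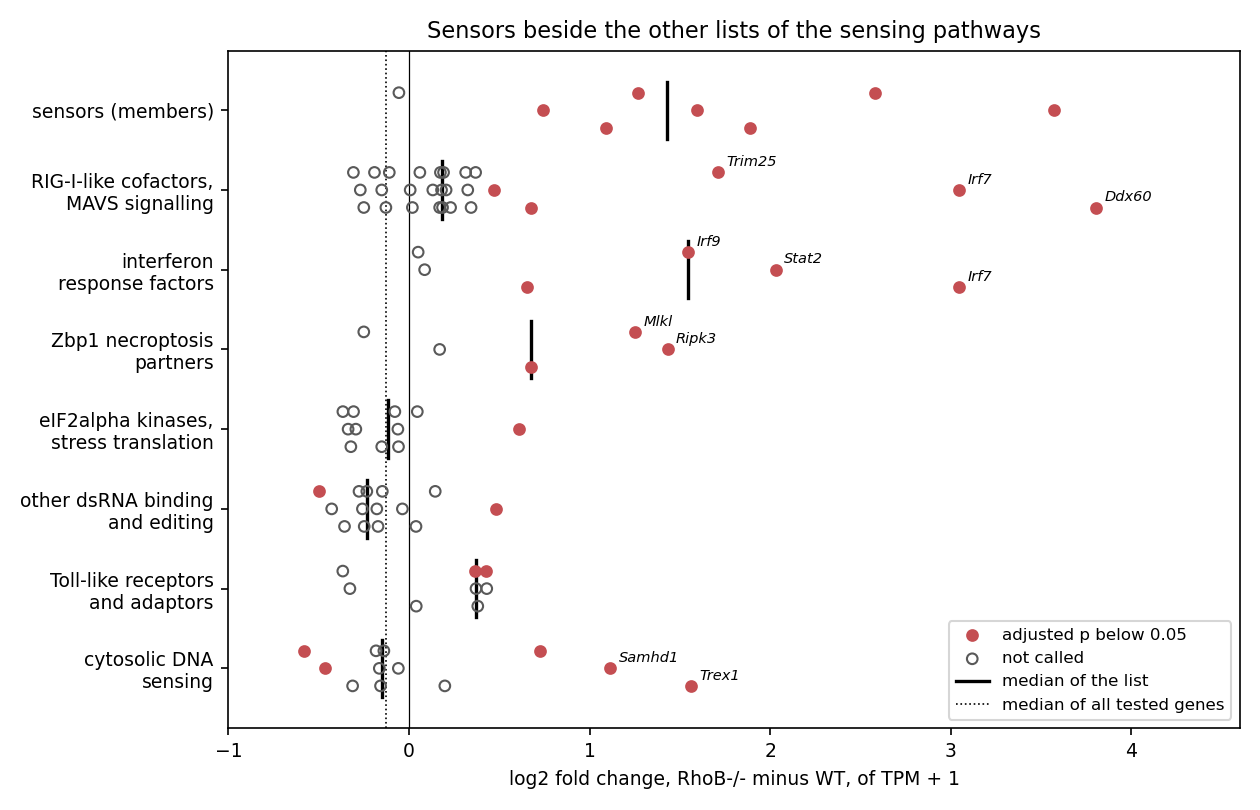
Log2 fold change, RhoB-/- minus WT, of the tested genes of the sensors and of 7 other lists of the sensing pathways, without those not reported here; filled points have an adjusted p below 0.05 and bars mark medians of the whole lists. Genes called with an absolute log2 fold change above 1 are named outside the sensor list.

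Of the 5 genes that act with ZBP1 in necroptosis and its control, 3 were higher and none was lower, with a median log2 fold change of 0.68. The share higher was 60%, against 7.73% of all genes tested. Ripk3 went from 18.9 ± 3.47 to 53.7 ± 15.6 TPM (SD, n = 5 each; log2 fold change 1.43, adjusted p = 3.81e-04, limma with Benjamini-Hochberg adjustment). Mlkl, whose product breaches the membrane in necroptosis, went from 11.3 ± 0.902 to 28.9 ± 7.26 TPM (SD, n = 5 each; log2 fold change 1.25). Casp8, which restrains necroptosis and is also counted with the MAVS list, went from 62.3 ± 4.37 to 102 ± 23.6 TPM (SD, n = 5 each). All 3 were apart between the groups. Ripk1 and Fadd were not called, at 18.2 and 6.80 TPM in WT and 20.7 and 5.54 TPM in RhoB-/-.

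PKR shares its substrate eIF2 alpha with 3 other kinases. In the main fit, with the mitochondrial genes kept, only PKR among them was called. Eif2ak1 (HRI) had 21.8 ± 2.84 and 20.5 ± 1.63 TPM, Eif2ak3 (PERK) had 14.1 ± 0.841 and 11.1 ± 1.98 TPM, and Eif2ak4 (GCN2) had 6.10 ± 1.05 and 4.71 ± 0.482 TPM in WT and RhoB-/- (SD, n = 5 each). Of the 12 genes of stress translation 2 were higher and none was lower, with a median of -0.11 that lay close to that of all genes tested. The share higher was 16.7%, against 7.73% of all genes tested, of which 13.5% were lower. Ppp1r15b, a subunit of the eIF2 alpha phosphatase, was 1 of the 2 higher genes (log2 fold change 0.61, adjusted p = 0.00835, limma with Benjamini-Hochberg adjustment). Eif2ak3 was apart between the groups, but its adjusted p was 0.0754 (limma with Benjamini-Hochberg adjustment), and 3 genes of the list were lower in the fit without the mitochondrial genes. Atf4 and Ddit3, which are induced downstream of eIF2 alpha phosphorylation, were not called, with log2 fold changes of -0.29 and -0.32. Phosphorylation itself was not measured.

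Among 18 other genes of RNA binding, editing and processing, 15 were tested, 1 was higher and 2 were lower, with a median of -0.23. These are 6.67% and 13.3% of the genes tested in the list, close to the 7.73% and 13.5% of all genes tested, and 5 were lower without the mitochondrial genes. Tut7 was higher by 0.48, whereas the tRNA deaminase gene Adat2 was lower (-0.50). Adarb1, the gene of the editing enzyme ADAR2, was at most 0.16 TPM in any library. The helicase Dhx9 and the nuclease gene Dicer1 were not called. The call of Tut7 was lost without WT replicate 4 and with the replicate block, and that of Adat2 was lost in 6 of the 10 settings that left out 1 library and in 3 of 7 others, with adjusted p values of up to 0.0522 and 0.0960 in limma with Benjamini-Hochberg adjustment.

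Tlr3 was far above the other Toll-like receptors for nucleic acid in these cells. Tlr7, Tlr8, Tlr9 and Tlr13 had at most 0.09, 0.52, 0.17 and 0.07 TPM in any library. Of the list of 14 receptors, chaperones and adaptors that Tlr3 was set beside, 8 were tested, 2 were higher and none was lower, with a median of 0.37. The 2 higher genes were 25% of those tested in the list, against 7.73% of all genes tested. These were the TLR3 adaptor Ticam1 (log2 fold change 0.37, adjusted p = 0.0252) and the kinase Irak4 (0.42, adjusted p = 0.0463, both limma with Benjamini-Hochberg adjustment). Unc93b1, which carries these receptors to the endosome, had 23.6 ± 3.59 and 32.3 ± 6.37 TPM (SD, n = 5 each) and was not called. The count of 2 was not stable, as it was 0 with the replicate block, without WT replicate 4, without RhoB-/- replicate 4, or without the library labelled RhoB-/- replicate 5, and 4 without RhoB-/- replicate 2, with each library centred on its median or with quantile normalization.

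The main receptor of cytosolic DNA was at a low level. Cgas had 1.47 ± 0.199 and 1.25 ± 0.279 TPM and its adaptor Sting1 had 3.53 ± 1.04 and 3.24 ± 1.86 TPM in WT and RhoB-/- (SD, n = 5 each), and neither was called. Aim2, the DNA sensor of the inflammasome, had 47.6 ± 5.74 and 54.9 ± 8.30 TPM (SD, n = 5 each) and was not called. Of the 16 genes of this list 12 were tested, 3 were higher and 2 were lower, with a median of -0.15. These are 25% and 16.7% of the genes tested in the list, against 7.73% and 13.5% of all genes tested. Higher were Trex1 (log2 fold change 1.56), Samhd1 (1.12) and Mndal (0.73), of which TREX1 degrades cytosolic DNA and SAMHD1 degrades nucleotides. Mndal averaged 0.674 TPM in WT and 1.78 TPM in RhoB-/-, so it reached the level for testing through the RhoB-/- libraries; with no filter on low TPM it was also called, and 5 of 16 genes were higher and 1 was lower. Lower were Enpp1 (-0.58), which hydrolyses the second messenger cGAMP, and Rnaseh2b (-0.46), whose call was lost in 9 of the 10 settings that left out 1 library and in 4 of 8 others, with an adjusted p of up to 0.107 (limma with Benjamini-Hochberg adjustment). Ifi203 and Ifi204 were below the level for testing, but were apart between the groups at 0.306 and 0.06 TPM in WT and 1.19 and 1.74 TPM in RhoB-/- (p = 0.00794 each, two-sided exact permutation test, the smallest p that 5 against 5 libraries can give).

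The interferon genes are the main targets of the sensing pathways. Of 21 type I, II and III interferon genes none reached the level for testing, and 18 were listed at 0 in all 10 libraries, among them Ifnb1 and all Ifna genes of the list. Ifng had 0.678 ± 0.397 TPM in WT and 0.526 ± 0.378 TPM in RhoB-/- (SD, n = 5 each; p = 0.540, two-sided exact permutation test). Ifnl2 was at most 0.25 TPM in any library. Ifnk was listed at 0 in all WT libraries and reached 0.44 TPM in RhoB-/- libraries (p = 0.0476, two-sided exact permutation test, not adjusted for the number of genes). The depth is unknown, so how low a level could have been seen cannot be given, and interferon protein was not measured.

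Most transcription factors that carry the response to interferon were higher, as most sensors were. Of 7 factors 5 were higher and none was lower, with a median of 1.55. The share higher was 71.4%, against 7.73% of all genes tested. Stat2 went from 12.9 ± 2.82 to 55.4 ± 10.6 TPM (SD, n = 5 each; log2 fold change 2.03) and Irf9 from 11 ± 1.31 to 34.0 ± 3.65 TPM (1.55). Their adjusted p values were 6.53e-06 and 1.97e-06 (limma with Benjamini-Hochberg adjustment). Irf7, given above, was the largest of the list, and Irf1 had 0.66 with overlapping groups. The call of Irf1 was lost in 4 of the 10 settings that left out 1 library and in 1 of 8 others, with an adjusted p of up to 0.0660 (limma with Benjamini-Hochberg adjustment). Irf2 and Irf8 were not called.

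Since the cells were not sorted, markers of other cell types were read beside the sensors. Epithelial genes dominated: Car1, the most abundant of 12 epithelial markers, averaged 12756 TPM in WT and 17151 TPM in RhoB-/-, and Epcam, Cdh1 and Krt8 were high in all libraries. Of these 12, 3 were higher, Krt20 (log2 fold change 1.17), Cdhr5 (0.80) and Vil1 (0.65), and none was lower, with a median of 0.29. The share higher was 25%, against 7.73% of all genes tested. The count of higher epithelial markers was 6 with each library centred on its median and 5 without RhoB-/- replicate 2. Leukocyte markers were low but differed with genotype in the same direction as the sensors. Of 20 markers 8 were tested, 6 were higher and none was lower, with a median of 1.03, led by Nkg7 (1.32), Cd68 (1.19), Ptprc (1.18), Cd8a (1.10) and Cd3g (0.96). The share higher was 75% of the markers tested, against 7.73% of all genes tested. Cd8a, Cd68 and Lyz2 averaged less than 1 TPM in WT and reached the level for testing through the RhoB-/- libraries, so the count and the median rest in part on genes admitted for being high there. With no filter on low TPM 7 of 20 were higher, Cd8a and Cd68 among them, and none was lower. Summed over all 20 markers, the level was 17.2, 10.1, 8.82, 11.2 and 18.8 TPM in WT replicates 1 to 5. It was 43.2, 30.7, 34.2, 33.6 and 52.2 TPM in RhoB-/- replicates 1 to 5, with no overlap and a 2.93-fold ratio of means. Siglech, Xcr1 and Flt3, markers of plasmacytoid and conventional dendritic cells, were at most 0.19, 0.03 and 0.10 TPM in any library. Itgax, a marker of dendritic cells and macrophages, was also below the level for testing but apart between the groups, with means of 0.16 TPM in WT and 0.704 TPM in RhoB-/- (p = 0.00794, two-sided exact permutation test, not adjusted). The B cell marker Cd79a averaged 0.024 and 1.85 TPM, with overlapping groups (p = 0.0159 by the same exact test), and its RhoB-/- values ran from 0.09 to 6.09 TPM with a median of 0.59. Without the highest, in the library labelled RhoB-/- replicate 5, the RhoB-/- mean was 0.79 TPM (p = 0.0159, two-sided exact permutation test on 9 libraries, not adjusted). For untreated mice the paper reports, from flow cytometry of the colonic lamina propria and lymph nodes, that infiltration by immune cells was similar between genotypes. The IEC fraction was not measured in that way. The part of leukocyte RNA in the difference of the sensors was not tested, and in bulk RNA more cells of a type and more RNA per cell cannot be told apart.

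Of 12 stromal and endothelial markers, 3 were tested and Dcn was higher, from 2.02 ± 0.193 to 9.74 ± 8.80 TPM (SD, n = 5 each; adjusted p = 0.0202, limma with Benjamini-Hochberg adjustment), none was lower, and the median was 0.60. The share higher was 33.3% of the 3 markers tested, against 7.73% of all genes tested. The call of Dcn was lost without WT replicate 4 and without RhoB-/- replicate 4, with adjusted p values of 0.0509 and 0.0542, and with no filter on low TPM, at 0.0634 (limma with Benjamini-Hochberg adjustment). The summed markers were 6.41, 7.85, 5.86, 7.88 and 6.86 TPM in WT replicates 1 to 5. In RhoB-/- replicates 1 to 5 they were 8.13, 9.16, 8.18, 17.8 and 38.4 TPM, with no overlap and a 2.34-fold ratio of means. Dcn was 24.51 TPM of the last of these sums, its RhoB-/- mean without that library was 6.05 TPM, and not all markers of the list were higher. Pdgfrb averaged 2.17 TPM in WT and 1.36 TPM in RhoB-/- and was not called (log2 fold change -0.42), Pecam1 averaged 0.974 and 0.986 TPM, and Acta2 averaged 0.16 and 0.152 TPM. Means were higher in RhoB-/-, with overlapping groups, for Col3a1 (1.07 and 2.80 TPM), Col1a1 (0.188 and 0.568), Col1a2 (0.268 and 0.534) and Kdr (0.004 and 0.054). Without the library labelled RhoB-/- replicate 5 the RhoB-/- mean of Col3a1 was 1.45 TPM. The library labelled RhoB-/- replicate 5 thus had the most Rhob RNA of its group, the highest sums of leukocyte and of stromal markers, and the highest level of all 7 called sensors. The sum of the 12 epithelial markers was also highest of all 10 libraries there, at 44032 TPM against at most 30802 TPM in WT. Whether these are related was not tested; the 7 members were called without this library, as given above. Sex did not separate the groups, as Xist was at most 0.08 TPM and Ddx3y at least 11.2 TPM in all 10 libraries, and none of the 4 tested sex-linked genes was called (lowest adjusted p 0.688, limma with Benjamini-Hochberg adjustment).

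**Figure D4:**
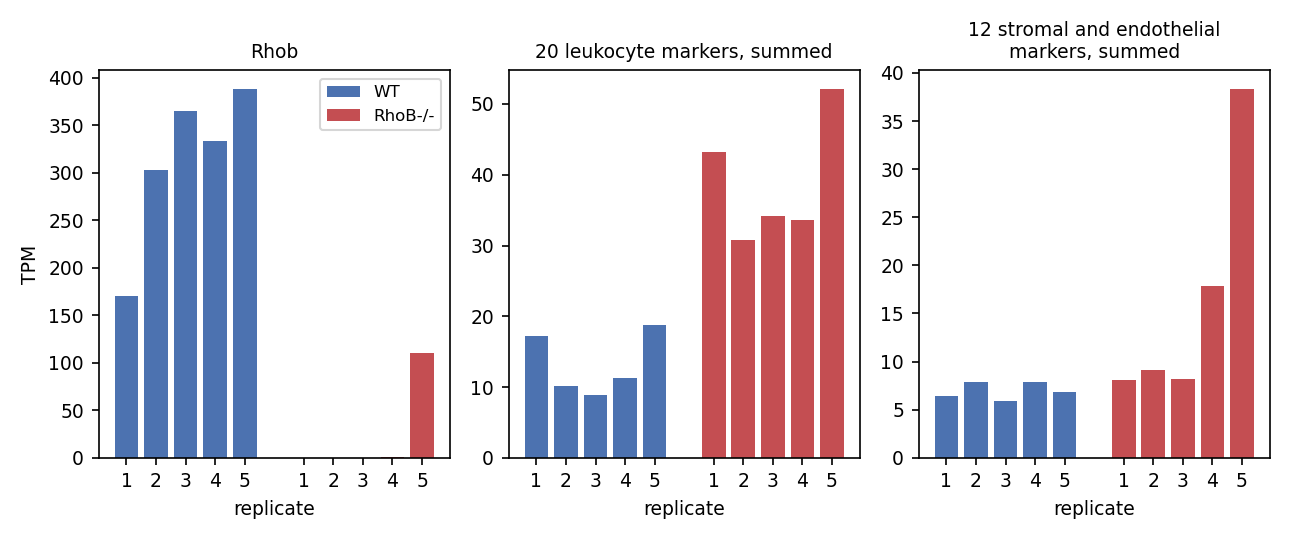
TPM of Rhob, of 20 leukocyte markers summed and of 12 stromal and endothelial markers summed, 1 bar per library, for WT (blue) and RhoB-/- (red) replicates 1 to 5; each panel has its own linear axis from 0. The library labelled RhoB-/- replicate 5 has 110.87 TPM of Rhob and the highest marker sums, 52.2 and 38.4 TPM.

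Some members share exon bases with a gene on the opposite strand, and reads there cannot be assigned with certainty. The study's methods mention an orientation setting for HISAT2, but give neither its value nor whether the kit or RSEM used strand. Adar shares 1365 of its 8118 exon bases with Chrnb2, which had 0.932 TPM in WT and 0.780 TPM in RhoB-/-. Dhx58 shares 141 of 3272 bases with the antisense gene Dhx58os, at 0.026 and 0.148 TPM. Tlr3 shares 381 of 5207 bases with Gm45542, at 0.214 TPM in WT and listed at 0 in RhoB-/-. Eif2ak2 shares 47 of 5113 bases with the ribosomal RNA gene n-R5s29 and 174 with Gm26637, for which no level was at hand. The values of n-R5s29 were 41.8 and 28.8 TPM in RhoB-/- replicates 1 and 2, and it was listed at 0 in the other 8 libraries. Its part in the difference of Eif2ak2 was not tested. As assigned, the partners of Adar, Dhx58 and Tlr3 were at low levels beside the members themselves. These levels rest on the same assignment of reads, and the part of these partners was not tested either.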

How the data were processed

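RNA of colon IECs from 5 WT and 5 RhoB-/- replicates was sequenced for the authors from both ends, 150 bp per read. Their processing went through SeqPrep and Sickle, HISAT2, StringTie and RSEM, and the submitters' processing notes name GRCm38.p6 and edgeR; an orientation setting is mentioned for HISAT2 without its value, and tool versions and annotation release are not given in the sources used here. The deposited TPM values were used as given. TPM keeps no depth, so the depth of each library and the counting error are unknown; 20261 to 21344 genes were above 0 in a library.

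Groups came from the sample labels. Of 55487 genes, the 12870 whose mean TPM reached 1 were compared as log2(TPM + 1) with limma 3.58.1 in R 4.3.3 (lmFit and eBayes with an intensity trend) and Benjamini-Hochberg adjustment, and called at an adjusted p below 0.05. Genes under this level were compared by a two-sided exact permutation test. The procedure was tested on simulated data. Gene positions are from GENCODE M21 on GRCm38, in which 55141 identifiers were found, and promoter sequences are from RefSeq on GRCm38.p6. Figures were drawn with matplotlib 3.10.9.

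The 13 gene lists, that of the members among them, were chosen with earlier results of these data known. Named genes are the members, Rhob, up to 5 called genes of each list with the largest change, the most abundant and defining markers, interferon genes above 0, and the 3 genes most like each member; some genes that meet this rule are not reported here but are in the counts and medians of their lists, and further genes were picked for mention with their values in view. Where a symbol was on more than 1 gene, the one with the higher mean was used. Alternatives were a pseudocount of 0.1, no filter or a mean TPM of at least 5, a replicate block, centring on the median, quantile normalization, TPM without the mitochondrial genes, no trend, the study's thresholds, and each library left out in turn.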

Additional observations from a re-analysis of the deposited data

Results flagged for a closer look

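Of 82 groups of 5 values examined, for the members, Rhob, the named list genes and the marker sums, 5 held a highest or lowest value whose gap to the nearest other value was more than 0.71 of the range of its group. At this level chance gives about 1 in 20, or 4.1 of 82. Rhob was 110.87 TPM in the library labelled RhoB-/- replicate 5 and at most 0.57 TPM in the other RhoB-/- libraries. Dhx58 was 7.06 TPM in WT replicate 2, above 4.16 TPM in the next library. Eif2ak2 was 17.96 TPM in the same library, against at most 11.98 TPM in other WT libraries. Samhd1 was lowest, at 22.12 TPM, in WT replicate 1. Tut7 reached 72.16 TPM in the library labelled RhoB-/- replicate 5.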

How the results depend on the processing

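The calls of the 8 members, 7 higher and Mavs not called, were the same in all 18 alternatives, and the study's thresholds also called 7 members higher. With each library left out in turn, the log2 fold change of Zbp1 was 3.43 to 3.70 and that of Tlr3 0.66 to 0.82, with adjusted p of 0.00395 to 0.0122 for Tlr3 (limma with Benjamini-Hochberg adjustment).

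The counts over all genes depended more on the processing. Against 995 genes higher and 1734 lower, there were 2004 higher with each library centred on its median and 1587 higher with quantile normalization. Genes lower were 1104 at a mean TPM of at least 5, 3648 without the mitochondrial genes and 1072 by the study's thresholds in limma. By those thresholds 820 genes were higher in limma. The paper reports more genes in each direction at its thresholds, and more higher than lower, and its counts were not reproduced here. Centring moved the median log2 fold change of all genes tested from -0.13 to -0.01, and the share of calls that were higher from 36.5% to 55.5%; it was 22.8% without the mitochondrial genes, which took 10.3% to 26.5% of TPM in a library. With 1 library left out there were 716 to 1158 genes higher and 860 to 2929 lower. The count of lower genes moved by over 1.5 times without WT replicate 2 (971), WT replicate 4 (860), RhoB-/- replicate 1 (955), RhoB-/- replicate 3 (2929) or the library labelled RhoB-/- replicate 5 (1092). Beyond the smaller number of samples or genes, the cause was not tested.

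The labels give both genotypes the numbers 1 to 5. Deviations of same-numbered libraries had correlations of -0.087 to 0.072, and 1 of 5 RhoB-/- libraries correlated best with its own number. No pairing by number was seen, although so few values cannot exclude one. With the replicate block 836 genes were higher and 1059 lower, and no member changed its call.

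Of 29 named list genes, 21 kept their call in every setting that tested them and 8 lost it in at least 1: Tbk1, Rnaseh2b, Irak4, Ticam1, Adat2, Tut7, Irf1 and Dcn. No called gene changed direction. Mavs changed sign between settings, from -0.13 to 0.06, without being called in any. Unknown depth limits statements on genes near 0.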
